A study of Mus musculus with 20 samples.

Results

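Gfap-high astrocytes were the 367 nuclei, of 160777 in the hippocampus of 20 mice, that carried an astrocyte signature together with 3 or more UMIs of Gfap. They were chosen by measured UMIs (unique molecular identifiers, 1 per captured RNA molecule). A nucleus had to hold 4 or more UMIs summed over Slc1a3, Gli3, Atp13a4, Fgfr3 and Aqp4, with at least 2 of these 5 genes above 0. It could hold at most 1 UMI summed over the neuronal genes Gad1, Gad2, Prox1 and Fibcd1, and none of Mog, Pdgfra, Csf1r or Flt1, which mark oligodendrocytes, their precursors, microglia and endothelium. This astrocyte gate took 9737 nuclei. Of these, 7434 had no Gfap UMI and are called Gfap-negative below, 1936 had 1 or 2, and 367 had 3 or more. Around the threshold, 432 nuclei held 2 Gfap UMIs and were outside, and 171 held 3 and were inside. A further 80 held 4 and 41 held 5, the median member held 4 and the highest held 20.

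GFAP, glial fibrillary acidic protein, is an intermediate filament of the astrocyte cytoskeleton. In the rodent hippocampus its messenger is abundant in astrocytes next to the pial surface, white matter and larger vessels and in the stem cells of the dentate gyrus, and low in many astrocytes of the neuropil. It also increases in reactive astrocytes, the state these cells enter after injury and around amyloid plaques. The other genes that named the class do different work: Aqp4 is the water channel of the astrocyte endfoot, Slc1a3 takes up glutamate, and Myoc and Thbs4 encode secreted glycoproteins, myocilin and thrombospondin-4.

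The mice were males of 4.5 to 5.5 months, either carriers of APPswe and PS1ΔE9 (APP/PS1) or their wild-type (WT) littermates, and each gave 1 library of single-nucleus RNA. WT-Wake had 6 mice, APP/PS1-Wake 3, WT-Isoflurane 3, APP/PS1-Isoflurane 4, WT-Ketamine 2 and APP/PS1-Ketamine 2. Isoflurane was given at 5% and lowered to 1.5%, ketamine at 150 mg/kg together with xylazine at 12 mg/kg, and anesthesia lasted 3 h before the tissue was taken. The labels give perfusion through the heart with cold PBS before dissection and the study's methods give decapitation, so how the tissue was taken is not settled. The xylazine was part of every ketamine group, so "ketamine" below means both drugs. Transgenes of this kind are driven by the promoter of the prion protein gene Prnp, and the description of the series gives other group sizes than its sample labels. Prnp in Gfap-negative nuclei ran from 127 to 460 CPM (UMIs per 1000000 UMIs of that class and mouse) in the 9 mice labelled APP/PS1 and from 117 to 293 in the 11 labelled WT. One mouse labelled APP/PS1, number 20, had 127 CPM, below both WT mice of neighbouring numbers (175 and 207). The ranges also overlapped among mice 10 to 13 (143 to 355 against 117 to 233 CPM) and 14 to 17 (244 to 299 against 182 to 293 CPM). They were apart, with APP/PS1 higher, among mice 1 to 4 (402 to 460 against 209 to 273 CPM) and 25 to 29 (225 to 290 against 140 to 172 CPM). Genotypes below are those on the labels, which Prnp did not settle.

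The members were spread unevenly. A mouse held between 1 and 70 of them, and mice 2 and 25 held 112 of the 367. In 5 mice (numbers 11, 12, 13, 20 and 29) there were under 10 members, 29 nuclei in all. These mice entered the shares but not the gene tests, which used the 338 members of 15 mice: 6 awake, 5 under isoflurane and 4 under ketamine. Library totals ran from 9243992 to 25394891 UMIs, and the summed UMIs of a mouse's members from 3842 to 191396. Mice 1 to 4 stood apart in the mitochondrial share of Gfap-negative nuclei, 1.76% to 2.83% against 0.0427% to 0.551% in the other 16. The libraries shared 3251 cell barcodes, at most 35 between any pair. No barcode was a member in more than 1 library.

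The members were deeper than the other gated nuclei, as a minimum of 3 UMIs for 1 gene favours. Their median depth was 2060 UMIs and 1197 genes, against 1233.5 UMIs and 816 genes in Gfap-negative nuclei. Mitochondrial UMIs made up 2.35% of their RNA and 0.811% of that of Gfap-negative nuclei, and the share was higher in members in 18 of 20 mice. A doublet score marked 17 members (4.63%), fewer in proportion than the 9.66% of Gfap-negative nuclei.

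All 9 markers listed for astrocytes were present in the members, at a summed 17200 CPM against 10700 in Gfap-negative nuclei, a sum that Gfap, Aqp4 and Slc1a3 of the rule enter. Oligodendrocyte markers summed to 709 CPM in members, the one list besides the precursors' (75 against 59.5 CPM) and the astrocytes' with a higher sum than in Gfap-negative nuclei, with Mog at 0 by the rule and 5 of 6 markers above 0. Microglia markers gave 134 against 157 CPM (5 of 7 above 0), endothelial markers 20.8 against 34.1 (4 of 6), mural markers 83 against 107 (5 of 6) and fibroblast markers 146 against 162 (6 of 6). Ependymal markers stood at 116 CPM in both pooled classes, but 43 of the members' UMIs came from mouse 10 (849 CPM in members against 146 in Gfap-negative nuclei) and 19 from mouse 14 (561 against 38.3 CPM), while the members of the other 18 mice stood at 0 to 214 CPM. Choroid plexus markers stood at 421 against 422 CPM when pooled, and in the members of single mice at 0 to 2007 CPM, with the highest value in mouse 29 (261 CPM in its Gfap-negative nuclei). Excitatory neuron markers stood at 578 against 956 CPM and inhibitory ones at 55.4 against 68.9 CPM. Besides Mog, the rule set Pdgfra, Csf1r and Flt1 to 0 in both classes. It also capped the sum of Gad1, Gad2, Prox1 and Fibcd1, which stand in the neuron lists. The values of these lists therefore restate the rule in part. The source of the markers of other cell types in the members was not tested.

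Promoter sequences of 4 genes are shown here because the results turn on them: Gfap, which defines the class, Myoc, the gene that separated it best, Apoe, an abundant gene that was higher in it, and Prune2, the gene that moved under isoflurane. Each is the 250 bases upstream of a RefSeq start on GRCm38.p6 (mm10), read 5′ to 3′ on the gene's strand. Capitals mark the letters TTGGC on either strand, the core letters bound by nuclear factor I (NFI), a factor family active in astrocytes. The Gfap window was chr11:102897201-102897450 on the minus strand, the Myoc window chr1:162638900-162639149 on the plus strand, the Apoe window chr7:19699189-19699438 on the minus strand and the Prune2 window chr19:16955868-16956117 on the plus strand. None of them overlaps an annotated exon, and the Gfap window lies inside a longer annotated model of the gene.
Gfap: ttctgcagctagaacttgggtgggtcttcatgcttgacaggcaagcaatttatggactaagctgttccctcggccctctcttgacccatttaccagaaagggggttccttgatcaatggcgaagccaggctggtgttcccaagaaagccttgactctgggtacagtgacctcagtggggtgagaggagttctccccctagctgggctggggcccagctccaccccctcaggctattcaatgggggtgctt
Myoc: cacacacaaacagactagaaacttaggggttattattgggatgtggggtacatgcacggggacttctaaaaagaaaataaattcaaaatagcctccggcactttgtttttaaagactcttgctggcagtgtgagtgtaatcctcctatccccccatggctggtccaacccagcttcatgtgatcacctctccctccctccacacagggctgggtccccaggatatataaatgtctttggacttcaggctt
Apoe: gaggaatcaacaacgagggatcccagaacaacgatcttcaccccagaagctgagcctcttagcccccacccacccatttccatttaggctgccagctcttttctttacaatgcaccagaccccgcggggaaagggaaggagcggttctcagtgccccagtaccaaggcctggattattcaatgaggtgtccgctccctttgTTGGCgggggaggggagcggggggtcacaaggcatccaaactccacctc
Prune2: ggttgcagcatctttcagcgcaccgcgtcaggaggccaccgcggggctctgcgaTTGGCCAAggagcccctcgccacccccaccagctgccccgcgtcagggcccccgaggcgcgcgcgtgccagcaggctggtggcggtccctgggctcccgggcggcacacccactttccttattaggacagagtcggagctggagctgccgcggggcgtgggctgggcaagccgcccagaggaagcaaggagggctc
The Apoe window held 1 NFI core, 49 bases before the start, and was the first of 3 that RefSeq starts give for this gene, the others holding 0 and 1. The Prune2 window held 2 that overlap each other on opposite strands, 196 and 193 bases before the start. The Gfap and Myoc windows held none, and no window held TTCNNNGAA (a STAT site) or TGANTCA (an AP-1 site). Of 32851 promoter windows of this length, 41.5% held an NFI core, 7.02% a STAT site and 6.75% an AP-1 site. Among genes tested between the classes that had a window, 52.5% of 2849 held an NFI core in at least 1 of their windows. The share was 57.6% of 229 genes called higher and 54.3% of 247 called lower in Gfap-high nuclei. These shares count genes, which can have several windows, so they cannot be set against the 41.5% of single windows. A match of letters is not a bound site.

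The first comparison asked what else distinguishes Gfap-high from Gfap-negative nuclei of the same animal. Counts were summed per mouse and class and tested with edgeR, with the mouse as a block. Of 3654 genes tested, 308 (8.43%) were higher in Gfap-high nuclei and 340 (9.3%) were lower at an adjusted p under 0.05, together 648 (17.7%). The genes of the rule were chosen for this contrast and are given as description only. Gfap ran from 1200 to 3560 CPM in the members of the 15 mice, and Aqp4 from 707 to 4660 CPM against 194 to 567 in Gfap-negative nuclei. Slc1a3, Gli3, Atp13a4 and Fgfr3, also in the gate, had lower means in the members, for Slc1a3 a mean of 1850 ± 492 CPM (SD, n = 15) against 2760 ± 474.

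Myoc (ENSMUSG00000026697, chr1:162639155-162649693, plus strand of mm10) separated the classes most. In Gfap-high nuclei it stood at 691, 1140 and 3630 CPM (lowest, median and highest of 6 awake mice), at 1177, 628, 3456, 3081 and 1911 CPM in isoflurane mice 3, 4, 15, 16 and 18, and at 303, 603, 895 and 516 CPM in ketamine mice 25, 26, 27 and 28. In Gfap-negative nuclei of the same 15 mice the highest value was 64.3 CPM. The groups did not overlap. The log2 difference was 5.52 ± 0.32 (SE, adjusted p = 2.67e-15). Of the named genes outside the rule, only 1 more, Disp3, of the Dispatched family of membrane proteins, had every member value (46.4 to 455 CPM) above every Gfap-negative value (16.6 to 42.4 CPM), with a log2 difference of 2.56 ± 0.19 (adjusted p = 2.12e-12).

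The ID proteins, helix-loop-helix factors that bind other such factors and block them from DNA, and classical targets of BMP signalling, were higher together. Id3 stood at 536 ± 277 CPM in Gfap-high and 99.4 ± 55.9 CPM in Gfap-negative nuclei (SD, n = 15), a log2 difference of 2.46 ± 0.18 (SE, adjusted p = 6.04e-13), with the member value higher in 15 of 15 mice. Id1 stood at 304 ± 157 against 33.3 ± 20.1 CPM, a log2 difference of 3.26, in 14 of 15 mice; the exception, ketamine mouse 27, had no Id1 UMI in its 10 members. Id4 gave 1.62 and Id2 1.50 on the log2 scale. Of 14 tested genes of a list of BMP, Notch and FGF genes, 5 were higher, the 4 ID genes and Notch1 (0.71), and 1 was lower, the FGF target Etv4 (-0.99). The median of that list was 0.34, against -0.06 over all 3654 genes.

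Apoe, the lipid carrier, ran from 6890 to 61400 CPM in Gfap-high and from 2200 to 12800 CPM in Gfap-negative nuclei, and was higher in the members in 15 of 15 mice (log2 1.64 ± 0.12, adjusted p = 2.12e-12). Igfbp5, which binds insulin-like growth factors, stood at 663 ± 364 against 138 ± 145 CPM (log2 2.54 ± 0.24), higher in 14 of 15 mice. Clu (clusterin) gave 1.32, and Cd9, a tetraspanin, 1.58. Thbs4 was a weaker marker than Myoc: it stood at 146 ± 68.7 against 81.8 ± 44.7 CPM, higher in the members in 12 of 15 mice, a log2 difference of 0.84 ± 0.25 (adjusted p = 0.0134). Under isoflurane the mean was 89.7 CPM in members against 100 CPM in Gfap-negative nuclei, with the member value higher in 3 of 5 mice. The Thbs4 call was lost without nuclei marked as doublets (0.48, adjusted p = 0.196), with low genes kept (0.49, 0.181), at Gfap of 5 or more (0.30, 0.841), with at least 20 nuclei per mouse (0.17, 0.845) and against nuclei with 1 or 2 Gfap UMIs (0.18, 0.669).

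Vim, the intermediate filament vimentin, and Plec, the linker that ties such filaments to other structures, were higher. Plec stood at 211 ± 150 against 47.2 ± 12.7 CPM (log2 2.06 ± 0.18), higher in 15 of 15 mice. Vim stood at 439 ± 276 against 274 ± 403 CPM (log2 1.38 ± 0.36, adjusted p = 0.00633). In the fit it was higher in all 11 awake and isoflurane mice and in none of the 4 ketamine mice. Outside the fit, Vim was lower in the members of isoflurane mouse 11 (214 against 446 CPM, 2 members). The same held for wake mouse 12 (0 against 318 CPM, 1 member), while mice 13, 20 and 29 had higher member values. Padi2, which converts arginine to citrulline in filament and other proteins, gave 2.01, the glutamine transporter Slc38a1 2.22 and Prune2 1.90.

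**Figure D1:**
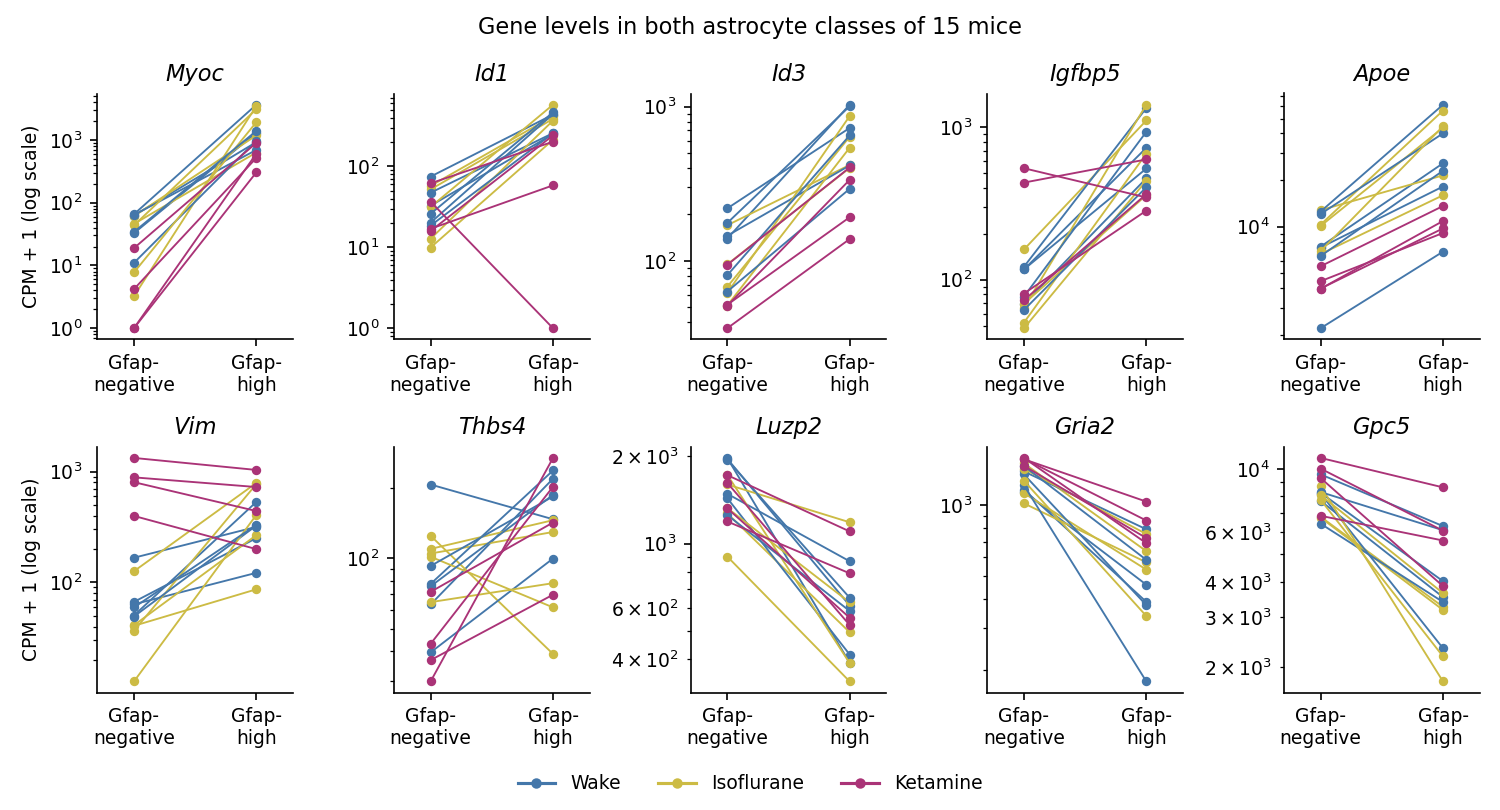
CPM + 1 (log axis) of 10 genes in Gfap-negative (left) and Gfap-high (right) nuclei, 1 line per mouse for 15 mice, coloured by state. Myoc, Id3 and Apoe rise in every line, Luzp2, Gria2 and Gpc5 fall in every line, and Vim falls in the 4 ketamine mice.

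Among the genes lower in the members, Luzp2, a leucine zipper protein, stood at 634 ± 254 CPM in Gfap-high and 1520 ± 315 CPM in Gfap-negative nuclei (log2 -1.31 ± 0.13, adjusted p = 3.88e-09). Gria2, an AMPA receptor subunit, stood at 594 ± 225 against 1350 ± 185 CPM (log2 -1.23 ± 0.13, adjusted p = 5.11e-09). Gpc5, a heparan sulfate proteoglycan of the glypican family, stood at 4250 ± 1880 against 8230 ± 1300 CPM (log2 -1.07 ± 0.11, adjusted p = 1.09e-08). Each of the 3 was lower in the members in 15 of 15 mice. Gm20713 (-1.22) is annotated on the opposite strand inside Gpc5, so reads of the pair can be told apart by strand alone. The adhesion gene Lsamp gave -0.89, the cation channel Trpm3 -1.29, the phospholipase Plcb1 -0.95, Brinp3 -1.63, Pigk -1.42, Ablim1 -1.45 and the protocadherin Pcdh9 -0.72. The highest adjusted p among these 7 was 1.60e-06. The Pcdh9 call was lost in 2 alternative settings and the Brinp3 call in 1. Excitatory neuron markers were also lower in the members, at a pooled 578 against 956 CPM. The part of neuronal RNA in these lower genes was not tested.

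A list of 30 tested genes of protoplasmic astrocytes, those of the neuropil, was split, with 7 higher and 9 lower. The lower ones included Slc7a10, a transporter of small neutral amino acids (-1.19 ± 0.21, adjusted p = 7.96e-05), the glutamate receptor gene Grm3 (-0.61) and the phagocytic receptor Mertk (-0.66). The higher ones included Sparcl1 (1.2987), the gap junction gene Gja1 (0.56) and Slc1a2, the main glutamate transporter (0.26 ± 0.08, adjusted p = 0.0253). Of 13 tested genes of a list drawn from descriptions of Gfap-high astrocytes, 11 were higher and none lower, with Mfge8 (-0.48) and Dkk3 (0.40) not called. The list of plaque-associated astrocyte genes gave 17 higher of 18, with a median of 1.41, and Sparc alone not called (0.03). C4b, complement component 4, led it beside Apoe and Igfbp5 (log2 1.99 ± 0.21, adjusted p = 1.09e-08). These lists overlap: Igfbp5, C4b and Vim stand in both. The gene lists were chosen with earlier results of these data known, so the counts of called list genes here and below are a description only.

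The share of each list called is to be read against the 17.7% of all 3654 genes. It was 57.1% of 14 matrix and adhesion genes and 40% of 15 glucocorticoid genes. Within a few genes of that background were 30% of 10 heat shock and metallothionein genes and 28.6% of 7 stem cell genes. The same held for 26.7% of 15 cholesterol genes and 20% of 15 clock genes. Among matrix and adhesion genes, 7 of 14 were higher, among them Tnc (1.68), Ncan (1.3004) and Tnr (1.21), and Lama2 was lower (-0.47). Of 15 cholesterol genes 4 were higher: Apoe, Hmgcs1 (1.27), Sqle (0.69) and Sc5d (0.64), the last 3 enzymes of sterol synthesis. The metallothioneins Mt1 (1.26) and Mt2 (1.48), metal-binding proteins induced by zinc and glucocorticoids, and Hsp90aa1 (0.48) were the 3 called of 10 heat shock and metallothionein genes. Of 15 glucocorticoid genes, 3 were higher, Mt1, Mt2 and Nfkbia (1.28), and 3 lower, Zbtb16 (-0.66), Hif3a (-0.62) and the mineralocorticoid receptor Nr3c2 (-0.41). Of 15 clock genes, Rora (-0.62), Hlf (-0.65) and Npas2 (-0.58) were lower. None of 12 genes of the cyclic AMP and noradrenaline list was called by edgeR, and its median was 0.08. In the remaining lists, 3 of 4 reactive genes were higher (C4b, Vim and Stat3), 2 of 7 stem cell and radial glia genes (Id4 and Sox2), 2 of 3 filament genes, and Jund of 2 early activity genes. All 9 mitochondrially encoded genes tested were higher, with a median of 1.56, and none of 49 ribosomal protein genes was called by edgeR. The part of the mitochondrial RNA in these differences was not tested.

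**Figure D2:**
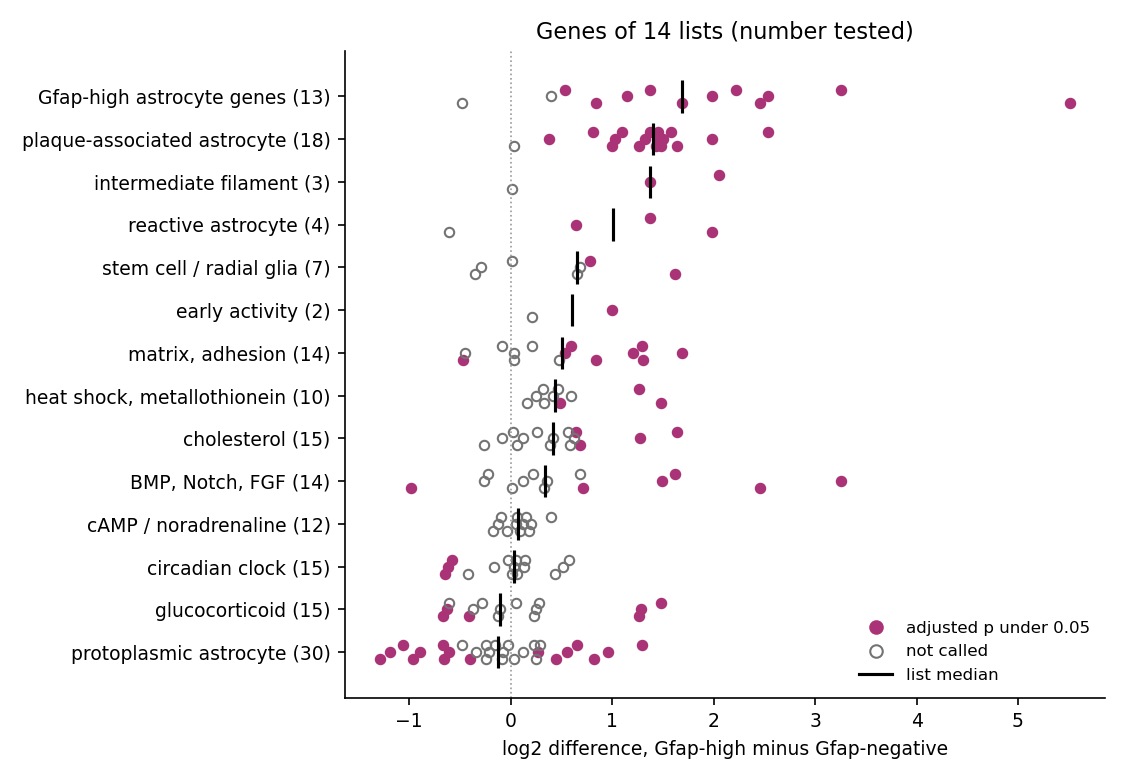
Log2 difference between Gfap-high and Gfap-negative nuclei (x axis) for each tested gene of 14 lists, with filled points for an adjusted p under 0.05, open points for others and a bar at the list median. The plaque-associated list has 17 of 18 points filled and to the right, and the cyclic AMP list has none of 12.

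With Gfap-negative nuclei matched to the members in UMIs, only 382 genes had counts enough to test and 169 were called, 145 of them also called in the main comparison, and Myoc gave 5.30. Against nuclei with 1 or 2 Gfap UMIs, 217 of 1661 were called, 212 of them shared, and Myoc gave 2.73.

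Detection per nucleus was compared at one depth by thinning each nucleus to 1000 UMIs, which 331 of 367 members and 4967 of 7434 Gfap-negative nuclei reached. A Myoc UMI was then present in 36.6% of members (95% exact binomial interval 31.4% to 42%), in 8.78% of nuclei with 1 or 2 Gfap UMIs and in 1.75% of Gfap-negative nuclei. Nuclei with a Mog UMI outside the gate, whose median depth was 1004.5 UMIs, gave 0.871%, whose source was not tested. A Mog UMI alone can place an astrocyte nucleus in that class, and 2.99% of its thinned nuclei held an Aqp4 UMI. Its Myoc share is therefore not a background free of Myoc. Of the Mog nuclei, 11.96% were marked as doublets. Before thinning the shares were 44.4%, 10.5%, 1.99% and 0.896%. The thinned shares for Id3 were 39.3%, 16.1%, 8.58% and 2.5% in the same order, and for Igfbp5 38.1%, 15.2%, 8.07% and 4.12%. Thbs4 was in 11.2% of members (7.99% to 15.1%) and 10.1% of nuclei with 1 or 2 Gfap UMIs (8.63% to 11.7%). It was in 7.01% of Gfap-negative nuclei and 1.12% of Mog nuclei. Vim was in 23.9% of members, 15% of nuclei with 1 or 2 Gfap UMIs, 10.3% of Gfap-negative nuclei and 7.87% of Mog nuclei. The intervals cover counting error only, since nuclei of 1 mouse are not independent.

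The levels followed the Gfap count in steps. In pooled nuclei with 0, 1 or 2, 3 or 4, and 5 or more Gfap UMIs, Myoc stood at 34.4, 225, 725 and 2293 CPM and Id3 at 103, 210, 478 and 717 CPM. Gpc5 ran the other way, at 7991, 6856, 5042 and 2868 CPM, as did Luzp2, at 1554, 1486, 836 and 332 CPM. The amino acid transporter Slc7a10 stood at 169, 158, 103 and 36.2 CPM, the last from 11 UMIs in 116 nuclei. Without mice 2 and 25, Myoc stood at 36.4, 263, 968 and 3158 CPM, the same order, and Slc7a10 at 164, 145, 82.9 and 12.7 CPM. Since the tiers were set by a gene of the class, these values are a description with no test.

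**Figure D3:**
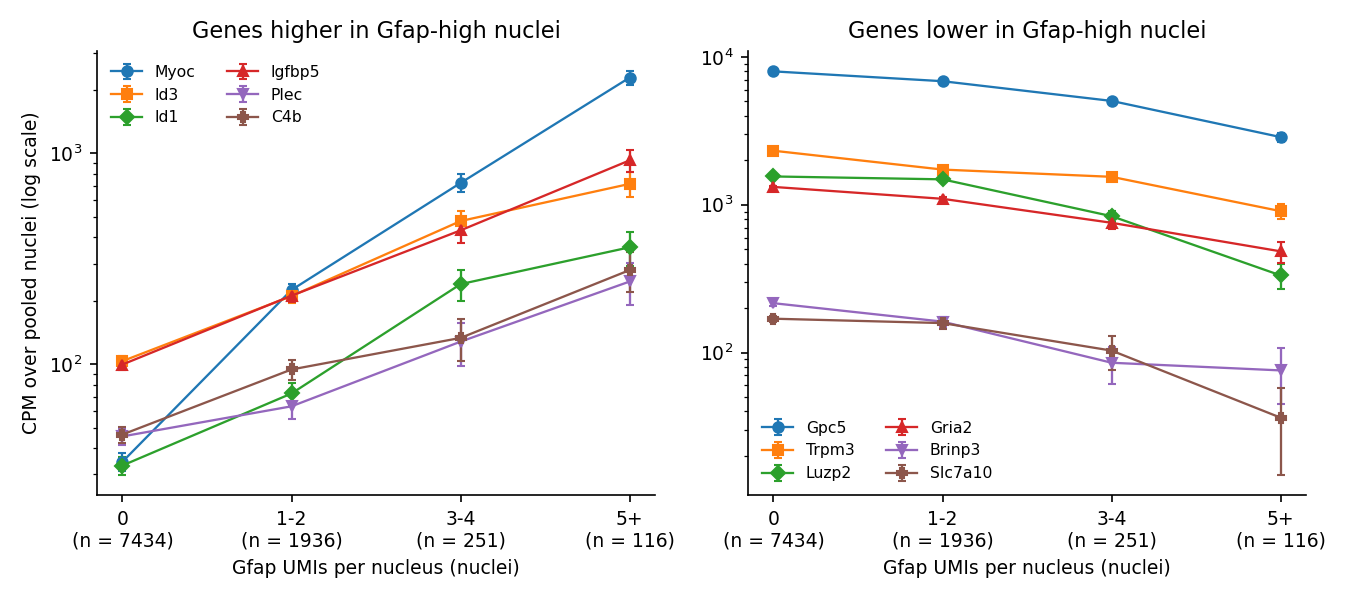
CPM over pooled nuclei (log axis) against Gfap UMIs per nucleus in 4 tiers of 7434, 1936, 251 and 116 nuclei, with bars for the 95% Poisson counting error. Myoc climbs from 34.4 to 2293 CPM, and Slc7a10 drops from 169 to 36.2 CPM.

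The members were not uniform among themselves. A Myoc UMI was found in 163 of the 367 and not in 204. The median depth of both sets was alike, 2062 and 2058 UMIs, and the mean Gfap count was 5.39 in the first and 3.98 in the second. Igfbp5 was detected in 76.1% of members with Myoc and 36.8% of those without, Id3 in 69.3% and 41.7%, Id1 in 50.3% and 25.5%, Vim in 54% and 33.8% and C4b in 39.9% and 23.5%. Thbs4 went the other way, 11% with Myoc and 23% without. Mouse 25, under ketamine, gave 62 of the 204 members without Myoc and 8 of the 163 with it, so this contrast is in part one between mice.

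The second comparison asked whether state or genotype changed how many astrocytes were Gfap-high. The share of gated astrocytes was 0.602%, 2.51% and 7.96% in wake mice (lowest, median, highest of 9), 0.515%, 2.9% and 5.18% under isoflurane (7 mice), and 13.4%, 3.3%, 4.48% and 6.03% in ketamine mice 25, 26, 27 and 28. All groups overlapped. The means were 2.86% ± 2.03 (SD, n = 9), 3.08% ± 1.69 (n = 7) and 6.81% ± 4.55 (n = 4). Ketamine differed from wake by 3.95 percentage points (two-sided exact permutation test, p = 0.0294, adjusted over 3 comparisons 0.0881, which misses the threshold), and isoflurane by 0.213 (p = 0.841, adjusted 0.841). APP/PS1 stood at 4.51% ± 3.99 (n = 9) and WT at 3.09% ± 1.51 (n = 11), with p = 0.324 by the exact permutation test (adjusted 0.486).

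Mice 2 and 25, the highest of their groups, weighed on this share. Without both, ketamine stood at 4.61% and wake at 2.23% (exact permutation p = 0.00606, the smallest this design allows, adjusted 0.0182, an alternative chosen after seeing the data). Without mouse 25 alone, the ketamine difference was 1.74 percentage points and missed the threshold. Of 20 tests that left out 1 mouse, 1 changed the call, with adjusted p from 0.00606 to 0.518 (exact permutation). The APP/PS1 difference turned from 1.41 to -0.356 points without mice 2 and 25, both labelled APP/PS1. Within WT the ketamine difference was 3.1 points (exact permutation p = 0.0357, the smallest possible with 2 against 6 mice), and within APP/PS1 it was 4.09 points (p = 0.5, exact, 2 against 3).

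For a measure without the minimum of 3 UMIs in 1 nucleus the ketamine difference passed the threshold. Gfap summed over all gated astrocytes stood at 112, 178 and 289 CPM in wake mice (lowest, median, highest) and at 546, 416, 450 and 355 CPM in ketamine mice 25, 26, 27 and 28, with no overlap. On the log2(CPM + 1) scale the means were 8.77 ± 0.258 (SD, n = 4) and 7.59 ± 0.423 (n = 9), a difference of 1.19 (two-sided exact permutation p = 0.0014, the smallest that these groups allow, adjusted 0.0042). Isoflurane differed from wake by 0.105 (exact permutation p = 0.663) and APP/PS1 from WT by 0.0382 (p = 0.897, exact). Of nuclei thinned to 1000 UMIs, 24.6% to 36.6% held a Gfap UMI in ketamine mice and 10.7% to 22.1% in wake mice (exact permutation, adjusted p = 0.0042). All 4 ketamine mice had numbers from 25 to 28, and the methods describe tissue handled in batches. Mouse 29, awake and next in number, had a Gfap level of 215 CPM, below the 4. With 1 such mouse, handling and drug cannot be told apart.

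**Figure D4:**
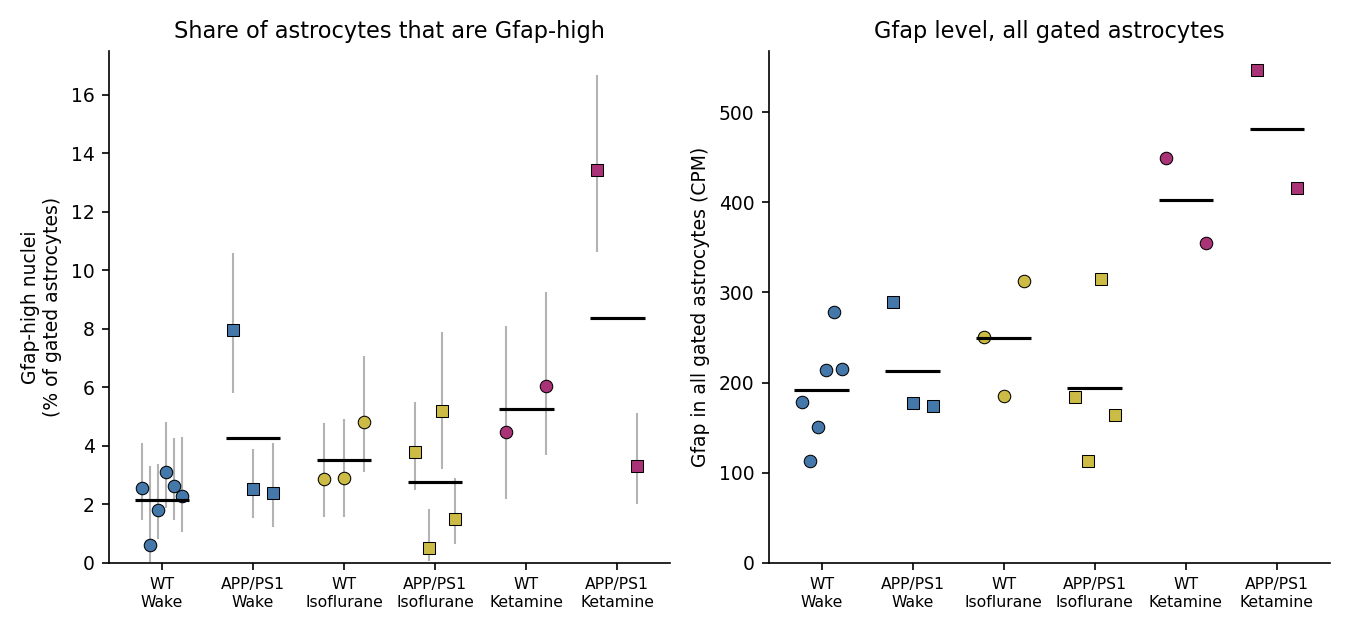
Left, the percentage of gated astrocytes that were Gfap-high in each of 20 mice by group, with exact 95% binomial bars; right, Gfap CPM over all gated astrocytes. Horizontal lines are group means; the 4 ketamine mice lie above every wake mouse on the right, at 355 to 546 CPM against 112 to 289.

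The third comparison asked which genes of the Gfap-high nuclei differed between isoflurane and wake, in 1 edgeR fit over 15 mice with genotype as a term. Only 600 genes had counts enough to test. Of these, 3 (0.5%) were called, 2 higher (0.333%) and 1 lower (0.167%). The strongest was Prune2 (ENSMUSG00000039126, chr19:16956118-17223932, plus strand), whose promoter window is shown above. It stood at 218, 256 and 413 CPM in wake mice (lowest, median, highest of 6) and at 987, 756, 667, 915 and 656 CPM in isoflurane mice 3, 4, 15, 16 and 18, with no overlap. The log2 difference was 1.57 ± 0.26 (SE, adjusted p = 0.00707). Prune2 had the counts to be tested only through the isoflurane mice, in which it was high. Ketamine mice, at 251, 362, 206 and 191 CPM, lay in the range of wake mice or just below it. Leaving out any 1 mouse gave 1.48 to 1.79, called each time. The call was lost without mice 1 to 4 (1.28, adjusted p = 0.156), without mice 2 and 25 (1.50, 0.0513), when low genes were kept (1.43, 0.121) and among the 5 mice with at least 20 members, 1 of them awake (1.48, 1). Within WT it was 1.45 and within APP/PS1 1.66, neither called. Gfap-negative nuclei of the same mice had the same direction, 245 ± 45.6 CPM (n = 5) under isoflurane against 65.9 ± 10.6 CPM (n = 6) in wake, a log2 difference of 1.88 (adjusted p = 3.64e-05), and the difference between the classes was not called (-0.39, adjusted p = 0.992).

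The second gene called higher was Opcml, an adhesion protein of the IgLON family. It gave 2.82 ± 0.60 (adjusted p = 0.0497), at 75.9, 1184, 1031, 193 and 907 CPM in isoflurane mice 3, 4, 15, 16 and 18 against 0, 64.7 and 305 CPM in wake mice (lowest, median, highest). The groups overlapped, leaving out 1 mouse lost the call in 11 of 15 fits, and the difference turned to -0.45 (adjusted p = 0.796) at Gfap of 2 or more. It was 1.83 (0.327) without marked doublets, 1.20 (0.782) with all 20 mice and 2.72 (0.0771) with the runs of mouse numbers as a block. Values without a call were 1.25 for Klf9, a Krüppel-like factor induced by glucocorticoids, -1.26 for the fucosyltransferase Fut9 and -1.45 for the glutamate receptor gene Grm3, each at an adjusted p of 0.0963. In Gfap-negative nuclei of the same mice edgeR called each in the same direction. The log2 differences there were 0.74 for Klf9 (adjusted p = 0.00705), -0.91 for Fut9 (0.00962) and -1.44 for Grm3 (4.43e-05). For none of them was the difference between the classes called. No tested gene of the 14 lists was called under isoflurane by edgeR, including 8 of the Gfap-high list (median 0.11, against 0.04 over all 600) and 12 of the plaque-associated list (median 0.31). Over all 600 genes, 74 had an unadjusted p under 0.05, and DESeq2 called 6.

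The fourth comparison set ketamine against wake in the same fit. Here 40 of 600 genes were called (6.67%), 15 higher (2.5%) and 25 lower (4.17%). The count was 9 without mouse 25 and 5 without mice 2 and 25. The strongest was Pde10a (ENSMUSG00000023868, chr17:8525372-8986648, plus strand), a phosphodiesterase that degrades cyclic AMP and cyclic GMP. It stood at 993, 1488, 2271 and 821 CPM in ketamine mice 25, 26, 27 and 28 and at 0, 97.7 and 257 CPM in wake mice (lowest, median, highest of 6), with no overlap. The log2 difference was 3.29 ± 0.43 (SE, adjusted p = 0.000366), and leaving out any 1 mouse gave 2.96 to 3.87. In Gfap-negative nuclei Pde10a gave 0.73 (adjusted p = 0.235), and the response differed between the classes by 2.64 ± 0.41 (adjusted p = 3.50e-05). Wake mouse 29 had 163 CPM in its members, from 3 UMIs. Pde10a had the counts to be tested only through the ketamine mice, in which it was high.

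Further genes were higher under ketamine. Neat1, the long noncoding RNA that scaffolds paraspeckles, stood at 920, 1126, 1583 and 936 CPM in ketamine mice 25, 26, 27 and 28, above the wake range of 153 to 742 CPM (log2 2.01 ± 0.36, adjusted p = 0.00442), and mouse 29 had 380 CPM. Dclk1, doublecortin-like kinase, stood at 2759, 3498, 4474 and 1451 CPM against 561 to 1210 CPM (log2 1.63 ± 0.29, adjusted p = 0.00442), but mouse 29, at 1680 CPM, was above the lowest ketamine mouse. Gfap-negative nuclei of the same ketamine mice had 443, 635, 814 and 660 CPM of Neat1, against 88.5 to 419 CPM in wake mice of the fit. For Dclk1 they had 1460, 2040, 1880 and 1530 CPM against 1050 to 1420 CPM. Mouse 29 had 257 CPM of Neat1 and 1990 CPM of Dclk1 there. The kinase gene Camk1d gave 1.94, Clmn 1.55, the growth factor receptor Fgfr2 1.03, Opcml 2.69 and the deubiquitinase Otud7a 0.98. The Camk1d call was lost without mice 2 and 25 (1.72, adjusted p = 0.175) and in 1 of 15 fits that left out a mouse. Opcml overlapped between the groups (68.8 to 1250 against 0 to 305 CPM) and turned to -0.02 at Gfap of 2 or more. Their member levels without overlap were 322 to 475 against 72.6 to 178 CPM for Camk1d, 724 to 1380 against 88.6 to 460 CPM for Clmn, 1430 to 2820 against 797 to 1310 CPM for Fgfr2, and 442 to 964 against 295 to 402 CPM for Otud7a. Mouse 29 lay below the ketamine range in these 4, at 54.3, 434, 434 and 163 CPM.

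Of the 25 genes lower under ketamine, 9 were mitochondrially encoded, of 10 tested. mt-Cytb, cytochrome b, stood at 10.4, 80.4, 68.8 and 134 CPM in ketamine mice 25 to 28 and at 696 to 6460 CPM in wake mice (log2 -5.85 ± 1.00, adjusted p = 0.00442). Mouse 29, awake, had 271 CPM. Mitochondrial UMIs made up 0.201% of its members' RNA, inside the range of ketamine mice (0.0313% to 0.208%) and below the 6 wake mice of the fit (0.436% to 5.66%). Wake mouse 12 (0.104%, 1 member) and isoflurane mouse 11 (0.193%, 2 members) also lay inside the ketamine range. Wake mouse 13 (3.69%) and isoflurane mouse 20 (0.727%) lay above it. In Gfap-negative nuclei, wake mice 12 (0.106%), 19 (0.12%) and 29 (0.0479%) and isoflurane mouse 20 (0.0783%) lay inside the ketamine range of 0.0427% to 0.124%. All ketamine mice were in 1 run of mouse numbers. For all 40 ketamine calls, and for the ketamine responses by class below, the run and the drug cannot be told apart. Among the 16 others, Pcsk1n, the proSAAS precursor, gave -3.29 ± 0.66 from 7 UMIs in ketamine mice, and mouse 29 had none. Atp6v0c, a subunit of the vacuolar proton pump, gave -1.74 ± 0.37, at 76.4 to 322 CPM against 296 to 611 CPM, and mouse 29 had 217 CPM. Of the 25 lower genes, 20 were also called higher in Gfap-high than in Gfap-negative nuclei and 0 were called lower. Of the 15 higher genes, 2 were called higher there and 6 lower. Over all 3654 genes of that comparison, 8.43% were called higher and 9.3% lower. The ketamine calls came from 600 genes filtered on the members alone, and the shares among those were not counted. All 9 mitochondrially encoded genes tested between the classes were called higher, so such genes make up part of the 20. Gfap, which sets membership, was itself higher over all gated astrocytes of ketamine mice. Its part in these overlaps was not tested.

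Of 8 tested genes of the Gfap-high list 2 were called, both lower: Slc38a1 (-2.12 ± 0.48, adjusted p = 0.0124) and Itm2c (-1.75 ± 0.43, adjusted p = 0.0206), 25% of the list against 6.67% of all 600 genes, and the list median was -1.20 against -0.01 over all 600. Vim, of the same list, gave 0.77 and was not called (598 against 312 CPM). Id3 gave -1.33 (adjusted p = 0.0556) and Myoc -1.44 (adjusted p = 0.0928). The part in these differences of which nuclei reached the Gfap minimum was not tested. A Myoc UMI was found in 11.4% to 31.6% of the members of a ketamine mouse, in 33.3% to 78.9% in the 6 wake mice of the fit, and in 77.8% in mouse 29. Of 12 plaque-associated genes only Ckb was called (-1.36, adjusted p = 0.0326; 8.33% of the list), and of 6 cyclic AMP genes only Pde10a. No tested gene of the protoplasmic list (20) or the glucocorticoid list (6) was called by edgeR. Excitatory neuron markers in the members had medians of 200 CPM in wake, 418 in isoflurane and 731 in ketamine mice, with overlapping ranges (59 to 572, 114 to 1030 and 138 to 914 CPM). Their part in the ketamine differences was not tested.

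**Figure D5:**
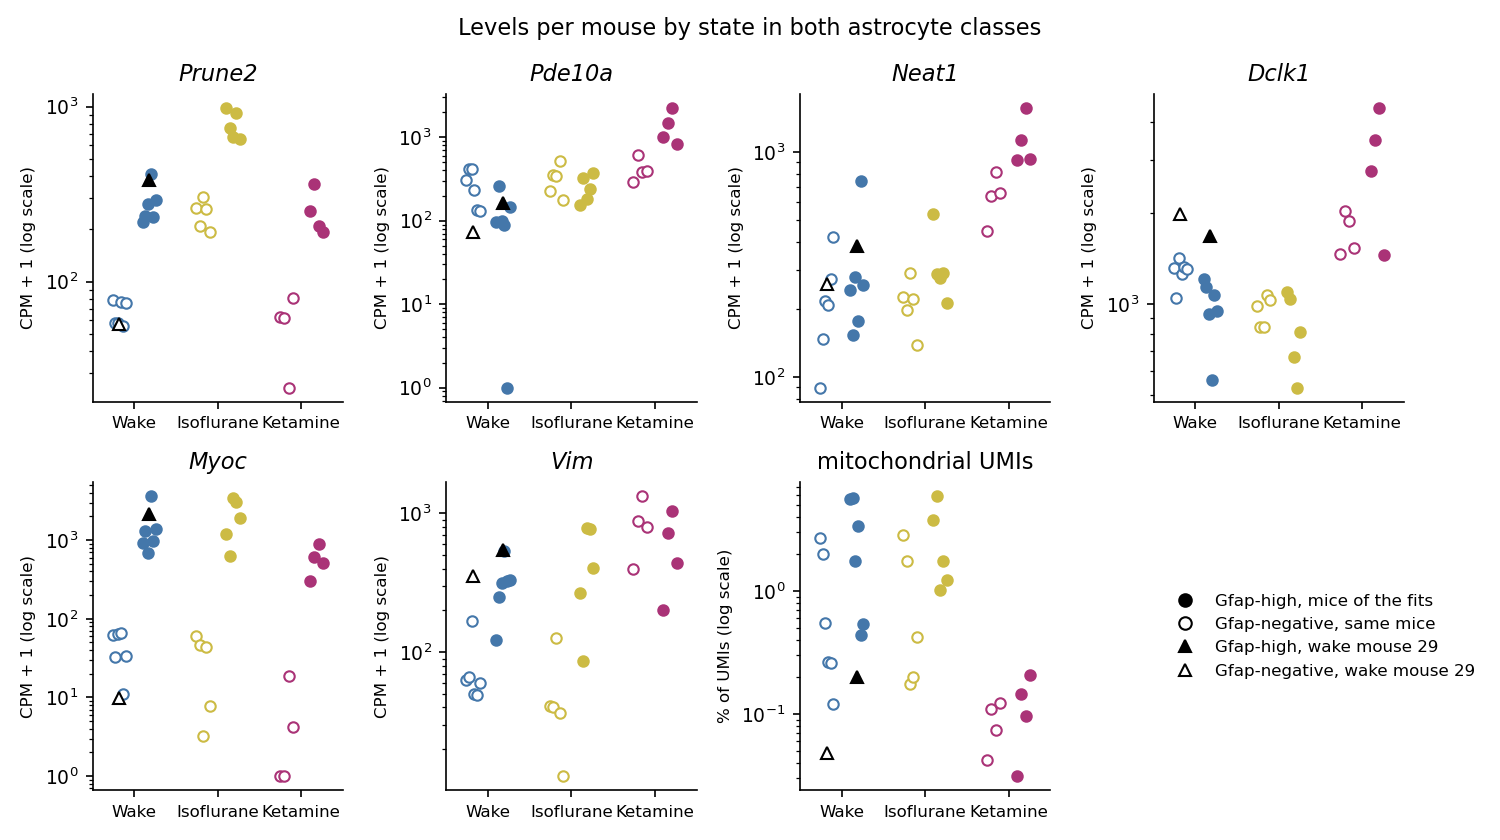
Levels per mouse (log axes, CPM + 1 or percent of UMIs) in Gfap-negative (open) and Gfap-high nuclei (filled) by state, with wake mouse 29, kept out of the fits, as triangles. Prune2 is highest under isoflurane in both classes, Pde10a is highest in Gfap-high nuclei of ketamine mice, and the mitochondrial share of mouse 29 lies with the ketamine mice.

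Responses were also compared between the classes in 1 fit over 6135 genes. For isoflurane 1 gene (0.0163%) differed, Opcml (2.86 ± 0.52, adjusted p = 0.00242). This call was lost with DESeq2, with all 20 mice and at Gfap of 2 or more, where the difference changed sign. For ketamine 11 genes (0.179%) differed. Vim had the smallest adjusted p. It stood at 852 CPM (mean, n = 4) in Gfap-negative nuclei of ketamine mice against 75 CPM in those of wake mice (n = 6), and at 598 against 312 CPM in Gfap-high nuclei. The difference in response was -2.84 ± 0.41 on the log2 scale (adjusted p = 7.91e-06). Gfap-negative nuclei of mouse 29 had 353 CPM of Vim, above the 6 wake mice of the fit (48.2 to 166 CPM) and below the 4 ketamine mice (397 to 1330 CPM). Of the other mice outside the fit, isoflurane mouse 11 had 446 CPM, above ketamine mouse 25 (397 CPM), and wake mouse 12 had 318 CPM. Wake mouse 13 and isoflurane mouse 20 had 25.2 and 15.9 CPM. Igfbp5 gave -1.93 ± 0.40 (adjusted p = 0.0067), at 400 against 730 CPM in Gfap-high nuclei. In Gfap-negative nuclei it stood at 80.1, 72.4, 535 and 431 CPM in ketamine mice 25, 26, 27 and 28 against 62.4 to 120 CPM in wake mice, so mice 25 and 26 lay in the wake range. Fibroblast markers in the same Gfap-negative nuclei stood at 332, 178, 452 and 644 CPM in ketamine mice 25, 26, 27 and 28, above the 54.7 to 172 CPM of the 6 wake mice of the fit, and at 220 CPM in mouse 29. In Gfap-high nuclei they stood at 121 to 420 CPM under ketamine and 0 to 178 CPM in wake. Their part in the Vim and Igfbp5 differences was not tested.

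The last comparison, APP/PS1 against WT with state as a term, called no gene of 600 (0%) by edgeR, with 13 at an unadjusted p under 0.05 and none by DESeq2. Genes of smallest unadjusted p included the adhesion protein Hepacam, at 491 ± 119 CPM (SD, n = 7) against 289 ± 57.3 CPM (n = 8), a log2 difference of 0.72 ± 0.21 (SE, adjusted p = 0.995), Kcnk1 (-0.68) and Serpine2 (-0.69), a protease inhibitor. None of the 12 plaque-associated genes tested was called by edgeR, and their median was -0.27. Myoc gave -0.64 ± 0.40 and Apoe -0.39 ± 0.38. Prnp in the members gave 0.28 ± 0.35, at 556 ± 201 against 433 ± 261 CPM. With 7 against 8 mice, a difference of the size of these standard errors was not detectable.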

How the data were processed

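Single-nucleus RNA libraries of 20 hippocampi, 1 per mouse, were read with Cell Ranger 5.0.0 by the authors against mm10 with introns counted, per the labels and the study's methods. The deposited matrices hold raw UMI counts per gene and nucleus, with 200 or more genes in each nucleus. The methods name ambient RNA and doublet removal; whether the deposited counts had it was not given in the files. Labels give no batch. Members and gene lists were chosen with earlier results of these data known.

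Counts were summed per mouse and class, for mice with at least 10 member nuclei. Tests across genes used edgeR 4.0.16 (quasi-likelihood, TMM scaling, filterByExpr, Benjamini-Hochberg adjustment, threshold 0.05), with DESeq2 1.42.0 as an alternative. Named genes were the rule genes, the 12 most significant calls per direction between classes, 8 per direction between states (where fewer were called, those and 3 more), and 2 to 6 per list by p. Scripts were tested on simulated data. CPM is UMIs per 1000000 UMIs of a class in a mouse, without scaling factors. Shares were compared by exact permutation over mice. Nuclei sharing a mouse were not treated as replicates. Alternatives covered the filter, Gfap minimum, doublets, depth, runs of mouse numbers and single mice. A doublet score (simulated neighbours, 30 components) marked 6.74% of all nuclei, which were kept. Each mouse is a separate animal. Results for some named genes are not reported here.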

Additional observations from a re-analysis of the deposited data

Results flagged for a closer look

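Of 46 groups of mice looked at for a single distant value, 4 held one, and chance alone gives about 1 in 20. The share of Gfap-high nuclei in wake mouse 2 (7.96%) had a gap to the next mouse of 0.66 of the range of the 9 wake mice. Neat1 in Gfap-high nuclei of wake mouse 17 (742 CPM) had a gap of 0.79 of the range of 6 wake mice. Camk1d in wake mouse 10 (178 CPM) had a gap of 0.808 of the range of 6 wake mice, and in ketamine mouse 25 (475 CPM) one of 0.854 of the range of 4 ketamine mice.

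For 12 tests a response to anesthesia differed between Gfap-high and Gfap-negative nuclei by edgeR's interaction term. Under isoflurane this was Opcml (2.86 on the log2 scale). Its call was lost with DESeq2, when every mouse was kept and at Gfap of 2 or more, where the difference was -0.22. Under ketamine the response of Gfap-high nuclei was larger for Htr2c (5.24), a serotonin receptor, Tafa2 (3.22), a secreted chemokine-like protein, Lrrtm4 (3.08), a synaptic adhesion protein, Lingo2 (2.88), Pde10a (2.64), Opcml (2.35) and Nkain2 (2.24). It was smaller for Ahnak (-3.41), Vim (-2.84), Igfbp5 (-1.93) and the lincRNA Gm42418 (-1.18). Htr2c rested on 24 UMIs in ketamine mice, from mice 26 and 28 alone, and wake mouse 29, kept out of the fits, had 55 UMIs of it in 9 members. Choroid plexus markers in the members stood at 1045, 1165 and 2007 CPM in mice 26, 28 and 29 and at 0 and 68.8 CPM in mice 25 and 27. They stood at 881, 770 and 1240 CPM in wake mice 2, 10 and 14, and at 721 CPM in isoflurane mouse 3. Their part in the Htr2c values was not tested. Gm42418 stood at 7593 CPM under ketamine against 2108 CPM in wake in Gfap-high nuclei and at 9569 against 1246 CPM in Gfap-negative nuclei, and ran from 1604 to 14906 CPM between ketamine mice. Opcml, Lrrtm4, Lingo2, Nkain2 and Tafa2, which neurons express at high levels, moved beside the excitatory neuron markers of the members, whose part was not tested.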

How the results depend on the processing

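Between the classes, the 648 calls became 635 with DESeq2 (594 shared), 1713 with no gene filter (228 higher, 1485 lower), 430 without mice 1 to 4, 153 at Gfap of 5 or more, 222 with at least 20 nuclei per mouse, 169 of 382 tested against UMI-matched nuclei, 217 against nuclei with 1 or 2 Gfap UMIs, and 550 to 718 with 1 mouse left out. The 3 isoflurane calls became 6 with DESeq2, 17 with no filter, 36 at Gfap of 2 or more, 1 without mice 1 to 4, without marked doublets or with 20 nuclei per mouse, 0 within WT, within APP/PS1 or without mice 2 and 25, and 1 to 4 with 1 mouse left out. With the runs of mouse numbers as a replicate block they were 2, and ketamine could not be fitted, being held in 1 run. The 40 ketamine calls became 131 with no filter, 85 at Gfap of 2 or more, 16 with 20 nuclei per mouse, 20 with all 20 mice, 5 without mice 2 and 25, and 9 (without mouse 25) to 58 (without mouse 4) with 1 left out. APP/PS1 gave 1 with no filter and 1 with 20 nuclei per mouse, and 0 in each leave-one-out fit. Classes differed under isoflurane for 0 genes with DESeq2, at Gfap of 2 or more, with 20 nuclei or with all 20 mice, 2 with no filter, 3 without doublets, 16 without mice 2 and 25, 52 without mice 1 to 4, and 0 to 27 (without mouse 2) with 1 left out. Under ketamine these were 7, 23 (no filter), 6 (no doublets), 1 (20 nuclei), 38 (without 2 and 25), 92 (without 1 to 4), and 6 to 83 (without mouse 2). With at least 20 nuclei, 5 mice were left, 1 awake, 1 under ketamine and 1 WT, each a lone sample assumed to vary like the others, so the state and genotype counts there say nothing about stability. The cause was not tested. Leaving out mice 2 and 25, leaving out mice 1 to 4 and 25, and keeping all 20 mice were chosen after seeing the data.

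The ketamine share difference passed the threshold at Gfap of 2 or more (9.12 points), thinned (14.4), without mice 1 to 4 (4.63), without mice 2 and 25 (2.38) and without mice 1 to 4 and 25 (2.42), and ran from 1.74 to 5.12 with 1 mouse left out. It missed the threshold over all nuclei (0.24 points, exact permutation, adjusted p = 0.236), at Gfap of 5 or more (1.45, 0.248) and without marked doublets (3.85, 0.126). The isoflurane share difference turned to -0.0513 over all nuclei, -0.166 at Gfap of 2 or more and -1.88 thinned (-0.138 to 0.849 with 1 left out). APP/PS1 turned to -0.356 and -0.618 for the share (0.296 to 1.91) and -0.178 and -0.18 for the Gfap level (-0.114 to 0.169) without mice 2 and 25 and without mice 1 to 4 and 25. The Gfap level differences ran from 0.00324 to 0.248 for isoflurane and from 1.08 to 1.28 for ketamine. At Gfap of 2 or more Opcml turned to -0.45 (isoflurane), -0.02 (ketamine) and -0.22 (isoflurane response by class). Htr2c turned to -0.75 there, -1.76 with 20 nuclei and -0.03 with all 20 mice. State could not be fitted at Gfap of 5 or more, where 4 mice were left. The classes were compared within each mouse; between states or genotypes, mouse numbers are unique and pair no animals. Few nuclei limited the state tests: 600 genes had counts enough, and members summed to as few as 14530 UMIs in a tested mouse.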
